A study of Homo sapiens with 16 samples.

Results

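The Wnt ligands, receptors and modulators were followed as 57 human genes in 6 classes: 16 ligands, 10 frizzled receptors, 5 co-receptors, 11 secreted antagonists, 9 genes of the R-spondin axis and 6 effector and feedback genes. They were chosen by name from a list and matched through their Ensembl identifiers, and all 57 were found among the 60448 genes of each count table. The identifiers were named from current or older symbols. Of the 57, 42 held enough counts to be tested, 13 were detected below that level and 2, WNT1 and FZD10, had no count in any library. Together the members took 0.0913% to 0.144% of the counts of a library.

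The cells were HMLER, human mammary epithelial cells made tumorigenic with telomerase, viral early-region proteins and oncogenic RAS, and the study set stable epithelial, plastic epithelial and mesenchymal states side by side. There were 16 RNA-seq libraries in 8 groups of 2. The wild-type groups were C1 (stable epithelial), C1-sgControl (C1 with a control guide), C2-Epi (plastic epithelial) and C2-Mes (mesenchymal). The EED-KO groups were C1-sgEED-Epi and C1-sgEED-Mes, and the KMT2D-KO groups were C1-sgKMT2D-Epi and C1-sgKMT2D-Mes, in each case a plastic epithelial and a mesenchymal state. EED is a subunit of the Polycomb complex that methylates histone H3 to silence genes, and KMT2D is a histone methyltransferase that acts at enhancers. All 8 groups were given the same medium, with insulin, EGF and hydrocortisone. The labels do not say whether a group was a population or a clone, whether a library came from cultured or sorted cells, or whether replicates were separate cultures. State and line can therefore not be told apart within a comparison, and p-values measure the spread between these libraries, which may be technical.

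Library totals ran from 18872124 to 31950649 counts. The summed level of 5 epithelial markers (CDH1, EPCAM, KRT5, KRT14, TP63) was 4150 to 11200 CPM (counts scaled to library size and between libraries) in the 5 epithelial groups and 26.9 to 151 CPM in the 3 mesenchymal groups. The 5 mesenchymal markers (VIM, CDH2, ZEB1, COL3A1, PDGFRB) summed to 799 to 2110 and 7710 to 14800 CPM, so the state labels held. EED was at 28.1 ± 1.99 CPM (SD, n = 2, as in each group) in C1-sgEED-Epi, 5.36 ± 0.197 CPM in C1-sgEED-Mes and 24.1 ± 3.52 CPM in C1-sgControl. KMT2D was at 126 ± 1.85 CPM in C1-sgKMT2D-Epi, 81.7 ± 6.92 CPM in C1-sgKMT2D-Mes and 80.4 ± 13.4 CPM in C1-sgControl. Counts over a whole gene do not show whether a guide disrupted it, so the knockout labels were not checked further. The C2-Mes replicates were the least alike, with an SD of log2 differences over genes of 0.584 against 0.160 to 0.327 in the other groups, and their mitochondrial shares were 12.5% and 8.15%. Leukocyte markers summed to at most 1.09 CPM in every library. Endothelial markers summed to 18.6 to 30.7 CPM in C2-Mes, with CDH5 at 0 in both libraries, and to 1.41 to 4.6 CPM elsewhere. Neural markers summed to 4.85 to 4.9 CPM in C1-sgKMT2D-Mes, with SOX10, ELAVL4 and STMN2 at 0, and to 2.46 to 3.04 CPM in C2-Mes, with SOX10 and STMN2 at 0. Their part in the results was not tested.

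Wnt proteins are lipid-modified ligands that bind frizzled receptors. With LRP5 or LRP6 as co-receptor they stabilise beta-catenin, which acts in the nucleus with TCF/LEF factors, and with ROR1, ROR2 or RYK they signal without beta-catenin to cell shape, polarity and movement. SFRP proteins, FRZB and WIF1 bind the ligands, DKK1 binds LRP co-receptors, and the ligases RNF43 and ZNRF3 remove frizzleds from the surface unless R-spondins and LGR receptors hold them back. In the mammary gland Wnt signals act on stem and progenitor cells and on branching, and in carcinoma models they are known for their part in the epithelial to mesenchymal transition.

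Promoter windows are shown for 7 members that changed the same way in all 3 mesenchymal against epithelial comparisons below, 3 that rose (WNT5B, FZD1, ROR1) and 4 that fell (WNT7A, FZD5, RNF43, TCF7L1). They are RefSeq sequences of GRCh38.p14, on the strand of the gene and 5′ to 3′, from the 250 bases before an annotated start, ending where any GENCODE exon begins. Capitals mark the E-box CACCTG or CAGGTG, bound by ZEB and Snail factors, and the TCF/LEF core CTTTGA or CTTTGT, or its reverse complement TCAAAG or ACAAAG.
WNT5B, chr12:1628981-1629196, plus strand, within an intron of longer annotated transcripts: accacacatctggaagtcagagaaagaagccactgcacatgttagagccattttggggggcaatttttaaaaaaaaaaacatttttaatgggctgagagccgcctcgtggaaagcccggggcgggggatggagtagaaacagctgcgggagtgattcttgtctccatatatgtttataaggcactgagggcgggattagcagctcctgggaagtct
FZD1, chr7:91264183-91264363, plus strand: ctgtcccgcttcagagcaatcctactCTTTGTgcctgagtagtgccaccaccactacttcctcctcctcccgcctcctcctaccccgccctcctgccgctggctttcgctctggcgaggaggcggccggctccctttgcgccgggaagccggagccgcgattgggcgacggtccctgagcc
ROR1, chr1:63773767-63774016, plus strand: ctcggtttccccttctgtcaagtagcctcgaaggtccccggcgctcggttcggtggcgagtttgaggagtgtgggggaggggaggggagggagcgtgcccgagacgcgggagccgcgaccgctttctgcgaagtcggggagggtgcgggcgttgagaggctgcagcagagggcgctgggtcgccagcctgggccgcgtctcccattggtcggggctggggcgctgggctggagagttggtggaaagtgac
WNT7A, chr3:13880122-13880321, minus strand: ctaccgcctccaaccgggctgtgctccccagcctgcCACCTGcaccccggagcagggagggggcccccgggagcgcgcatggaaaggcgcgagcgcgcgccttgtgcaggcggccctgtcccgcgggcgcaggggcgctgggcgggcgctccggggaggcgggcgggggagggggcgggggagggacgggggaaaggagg
FZD5, chr2:207769907-207770156, minus strand: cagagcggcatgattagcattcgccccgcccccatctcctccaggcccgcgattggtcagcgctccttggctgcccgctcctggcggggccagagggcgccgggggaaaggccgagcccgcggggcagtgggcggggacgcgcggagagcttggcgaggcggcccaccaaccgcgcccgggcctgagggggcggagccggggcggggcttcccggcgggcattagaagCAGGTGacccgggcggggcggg
RNF43, chr17:58417596-58417784, minus strand: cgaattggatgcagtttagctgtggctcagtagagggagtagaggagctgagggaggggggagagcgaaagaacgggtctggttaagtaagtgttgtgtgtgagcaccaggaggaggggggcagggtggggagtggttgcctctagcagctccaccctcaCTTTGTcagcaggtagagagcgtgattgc
TCF7L1, chr2:85133142-85133391, plus strand: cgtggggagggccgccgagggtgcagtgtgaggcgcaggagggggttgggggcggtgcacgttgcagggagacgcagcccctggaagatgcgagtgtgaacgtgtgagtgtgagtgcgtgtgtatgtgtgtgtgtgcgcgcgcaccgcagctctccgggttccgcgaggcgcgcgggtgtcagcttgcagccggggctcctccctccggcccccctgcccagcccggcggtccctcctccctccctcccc
The WNT7A and FZD5 windows each held 1 E-box, the FZD1 and RNF43 windows each held 1 TCF/LEF core, and the other 3 held neither motif. RefSeq windows were matched for 38 of the 57 members, 47 windows in all. Over their full 250 bases, 12.8% of the 47 held an E-box and 14.9% a TCF/LEF core, against 17.5% and 22.8% of 35116 promoters. CpG content was high: 70.2% of the member windows, against 47.5% of all, had an observed to expected CpG ratio over 0.6. The ratio was 0.738 for WNT7A, 0.885 for ROR1, 0.455 for the WNT5B window and 0.231 for the RNF43 window. A motif match describes the letters of a window and no more.

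The largest shift among the members was in the ligands, whose make-up turned over between the epithelial and mesenchymal states. Levels per length (RPKM) used the merged exons of all annotated transcripts of a gene, which can be longer than a single transcript. By this measure WNT7B was the highest of the 16 ligands in all 5 epithelial groups. It held 33.9% to 53.4% of the summed ligand RPKM of a library. WNT5B was the highest in all 3 mesenchymal groups, with 65.1% and 73.0% in C2-Mes, 86.6% and 86.7% in C1-sgEED-Mes and 91.0% and 91.4% in C1-sgKMT2D-Mes. The summed level was 8.29 ± 0.17 RPKM in C2-Epi and 10.5 ± 2.12 in C2-Mes, 19.8 ± 0.558 and 22.7 ± 3.17 in the EED-KO pair, and 8.47 ± 0.596 and 15.9 ± 1.77 in the KMT2D-KO pair. Every mesenchymal library lay above both epithelial libraries of its pair, narrowly so for C2-Mes replicate 1 (8.97 against 8.41 RPKM) and C1-sgEED-Mes replicate 2 (20.4 against 20.2 RPKM).

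**Figure D1:**
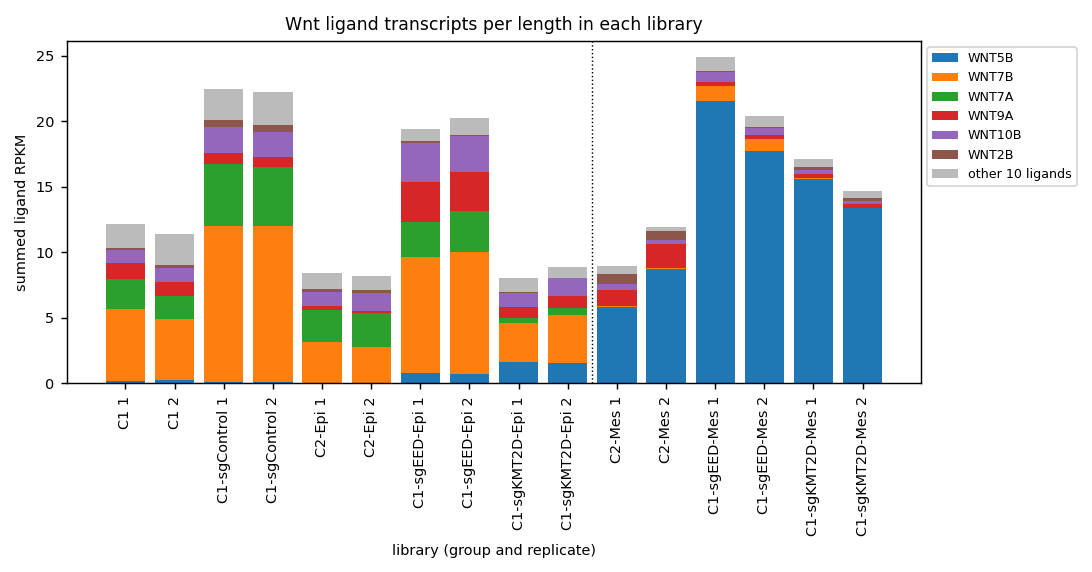
Summed RPKM of the 16 Wnt ligands (vertical axis) in each of the 16 libraries (horizontal axis), stacked by ligand, with the 3 mesenchymal groups right of the dotted line. WNT7B is the largest part of every epithelial bar and WNT5B of every mesenchymal bar.

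WNT5B, on chromosome 12 (GRCh38, 1529891 to 1647243, plus strand), encodes a ligand known mainly for signalling without beta-catenin. It was at 0.181 and 0.154 CPM in C2-Epi and 25.1 and 37.6 CPM in C2-Mes, 3.35 and 3.12 against 92.9 and 76.3 CPM in the EED-KO pair, and 7.05 and 6.85 against 67.3 and 57.7 CPM in the KMT2D-KO pair. In C1 it was at 0.891 and 1.27 CPM and in C1-sgControl at 0.462 and 0.557 CPM. Every mesenchymal library was thus above every epithelial library. The log2 change was 7.51 ± 0.31 (SE; adjusted p = 3.8e-10) for C2, 4.71 ± 0.23 (adjusted p = 2.2e-09) for EED-KO and 3.17 ± 0.21 (adjusted p = 3.5e-08) for KMT2D-KO cells, or 182-fold, 26.1-fold and 8.98-fold. These sizes differed from each other, with adjusted p = 4.0e-06 for KMT2D-KO against C2, 2.6e-04 for EED-KO against C2 and 0.0018 between the edited lines. The epithelial level was highest in C1-sgKMT2D-Epi and lowest in C2-Epi. C2-Mes lay below both edited mesenchymal groups, which did not pass against each other (log2 difference 0.44 ± 0.19, adjusted p = 0.095; 0.011 with a GC correction).

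Across the members, the C2 transition raised 12 and lowered 17 of the 42 tested, where 21% of all 18285 genes tested rose and 18.6% fell. In the EED-KO pair 16 rose and 16 fell (background 19.2% and 17.3%), and in the KMT2D-KO pair 11 rose and 18 fell (26.8% and 24%). The median absolute log2 change of the tested members was 1.92, 1.97 and 1.55 in that order, against 0.56, 0.51 and 0.75 over all genes. Members that passed the filter on low counts because a gene was high in a few groups are among them, so these shares describe the 42 and not the 57. In bulk RNA, fewer cells with a transcript and less of it per cell cannot be told apart.

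In all 3 transitions 5 members rose (WNT5B, FZD1, ROR1, DKK3, AXIN2) and 12 fell (WNT7A, WNT7B, WNT10A, WNT10B, FZD3, FZD5, SFRP1, DKK1, LGR6, RNF43, NKD1, TCF7L1). A further 4 rose in some and fell in another (WNT5A, WNT9A, FZD8, TCF7), 12 rose in 1 or 2 and fell in none, and 6 fell in 1 or 2 and rose in none. The remaining 3, the co-receptors LRP6 and RYK and the factor TCF7L2, passed in none. How many of all genes were called alike in all 3 was not computed, so these counts have no background and are a description.

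**Figure D2:**
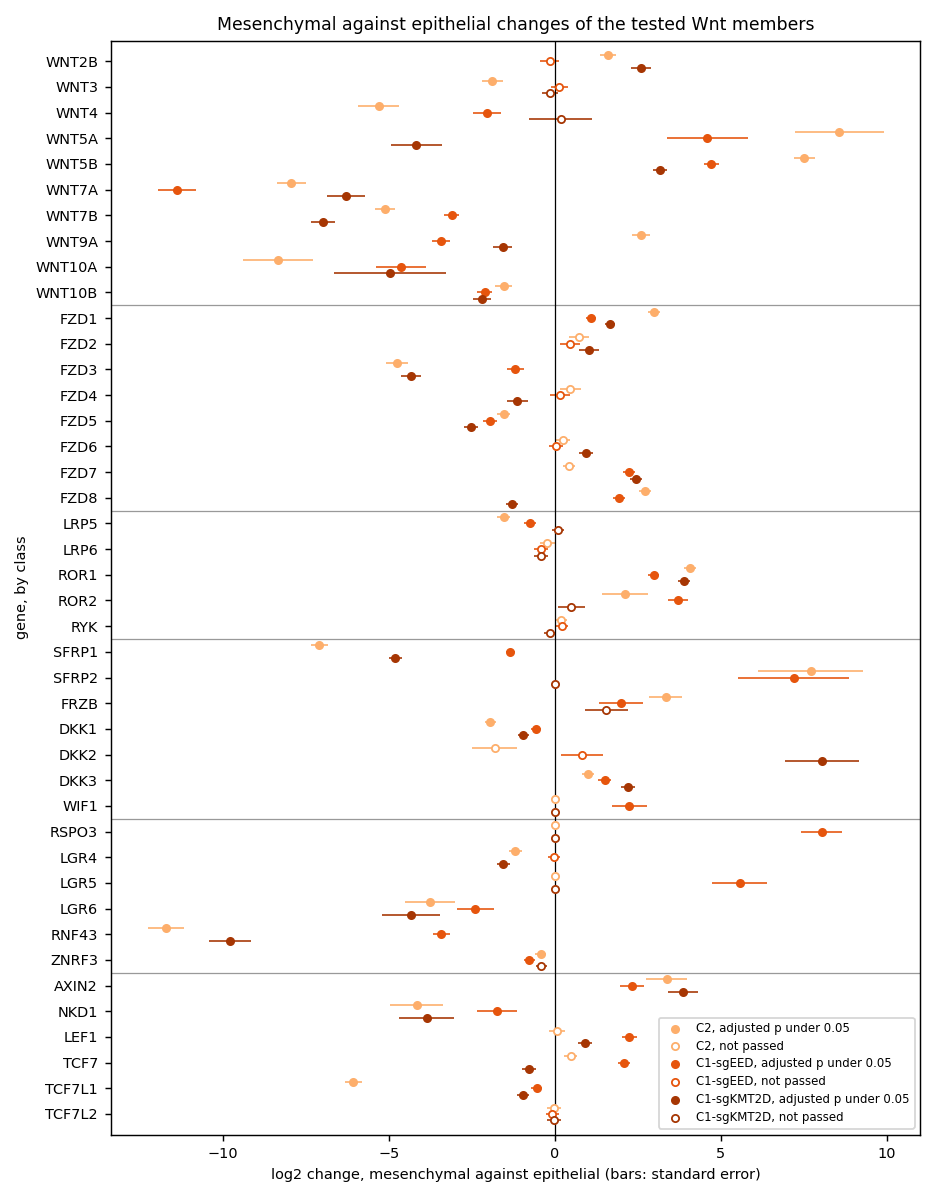
Log2 change between mesenchymal and epithelial libraries (horizontal axis, bars 1 standard error) of the 42 tested members (vertical axis, ordered by class) for C2, C1-sgEED and C1-sgKMT2D. Filled points passed at an adjusted p of 0.05; changes of genes with no count in a group depend on the model's prior count, and pairs with no count in either group sit at 0.

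Of the 10 ligands tested, 4 rose and 6 fell in C2, and 2 rose and 6 fell in each of the edited pairs. That is 100%, 80% and 80% called, in the order C2, EED-KO, KMT2D-KO, where 39.6%, 36.5% and 50.8% of all genes tested were. The fallen ligands included WNT7A, WNT7B, WNT10A and WNT10B, which are known to signal through beta-catenin. WNT7B was at 15.9 and 14 CPM in C2-Epi and 0.234 and 0.543 CPM in C2-Mes, a 34.8-fold fall (log2 -5.12 ± 0.30, adjusted p = 8.3e-09). It went from 15.2 and 18.4 to 0.209 and 0.0438 CPM in KMT2D-KO cells, a 126-fold fall (log2 -6.98 ± 0.36, adjusted p = 2.7e-09). In EED-KO cells it went from 44.8 and 46.9 to 5.66 and 4.93 CPM, an 8.64-fold fall (log2 -3.11 ± 0.23, adjusted p = 1.1e-07). The mesenchymal EED-KO libraries so kept more WNT7B than the mesenchymal KMT2D-KO libraries (log2 difference 5.32 ± 0.38, adjusted p = 2.1e-07). The fall in KMT2D-KO exceeded that in C2 by 1.86 ± 0.59 on the log2 scale (adjusted p = 0.034), a call lost without replicate 2 of C2-Mes (log2 -1.04, adjusted p = 0.4), of C1-sgKMT2D-Mes (-1.17, 0.21), of C2-Epi (0.073) or of C1-sgKMT2D-Epi (0.074).

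WNT7A nearly vanished in all 3 mesenchymal groups. It was at 11.1 and 11.7 CPM in C2-Epi, 12.2 and 14.3 CPM in C1-sgEED-Epi and 1.67 and 2.47 CPM in C1-sgKMT2D-Epi. The mesenchymal values were 0.0584 and 0.0319 CPM in C2-Mes, no count in either C1-sgEED-Mes library, and 0.0418 and 0 CPM in C1-sgKMT2D-Mes. The mesenchymal counts were too few for a fitted fold to be read: the C2 ratio was 276 (exact 95% interval 76 to 2280, counting error only, as for the ratios below), the KMT2D-KO ratio was 95.6 (16.8 to 3810), and the EED-KO fall was at least 110-fold with 3 counts set in each library at 0. WNT10A, at 1.73 and 1.5 CPM in C2-Epi and 0 in both C2-Mes libraries, fell at least 11.9-fold, and in EED-KO cells by a ratio of 28 (7.43 to 237). It was at 0.213 and 0.0797 CPM in C1-sgKMT2D-Epi. Its call in KMT2D-KO cells (adjusted p = 0.028) was lost without C1-sgKMT2D-Epi replicate 1 and without either mesenchymal library. WNT10B fell by 1.54 ± 0.26, 2.12 ± 0.23 and 2.19 ± 0.27 on the log2 scale, in the order C2, EED-KO, KMT2D-KO, and no difference between these changes passed.

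The other ligands separated the mesenchymal groups. WNT9A was at 1.26 and 0.692 CPM in C2-Epi and 4.85 and 7.03 CPM in C2-Mes, a rise of 2.60 ± 0.27 on the log2 scale (adjusted p = 3.7e-06). In EED-KO cells it fell from 12.1 and 11.9 to 1.2 and 1.01 CPM (log2 -3.43 ± 0.27, adjusted p = 2.7e-07), and in KMT2D-KO cells from 3.4 and 3.67 to 1.25 and 1.09 CPM (log2 -1.58 ± 0.28, adjusted p = 2.9e-04). The direction differed between C2 and both edited lines, with adjusted p = 1.1e-07 and 4.5e-06 for the differences. WNT2B rose in C2 (log2 1.60 ± 0.24, adjusted p = 1.1e-04) and in KMT2D-KO cells (2.60 ± 0.30, adjusted p = 8.0e-06), and its EED-KO value was -0.16 ± 0.29 (adjusted p = 0.73). WNT3 fell in C2 from 1.92 and 1.46 to 0.409 and 0.479 CPM, whereas its edited pairs did not pass.

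WNT5A, the close relative of WNT5B, stayed low. It had no count in C2-Epi and 3.33 and 0.639 CPM in C2-Mes. The rise of the group mean was at least 17.7-fold and was not called from the C2 libraries alone (adjusted p = 0.052). In EED-KO cells it rose from 0.0381 and 0 to 0.58 and 0.528 CPM, a ratio of 30.5 (5.04 to 1250), a call lost without C1-sgEED-Epi replicate 2 (adjusted p = 0.078). In KMT2D-KO cells it went the other way, from 2.66 and 2.15 to 0.126 and 0.131 CPM (log2 -4.18 ± 0.77, adjusted p = 5.9e-04). Among the epithelial groups, C1-sgKMT2D-Epi held the most WNT5A and also the most WNT5B. WNT4, a ligand of mammary progesterone responses, fell in C2 by a ratio of 48.7 (8.37 to 1960) and in EED-KO cells by 2.06 ± 0.42 on the log2 scale (adjusted p = 0.0016). In C1-sgKMT2D-Epi it was at 0.0354 and 0.0398 CPM.

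Frizzled receptors were present in every group, and FZD6 was the highest of the 10 by RPKM throughout, with 46.5% to 80.6% of the sum. The summed frizzled level was 59.5 ± 3.98 RPKM in C2-Epi and 84.6 ± 8.87 in C2-Mes, 51.5 ± 6.78 and 69.7 ± 4.63 in EED-KO cells, and 43.5 ± 4.21 and 74.0 ± 1.19 in KMT2D-KO cells. Of the 8 tested, 2 rose and 2 fell in C2, 3 rose and 2 fell in EED-KO cells, and 4 rose and 4 fell in KMT2D-KO cells. That is 50%, 62.5% and 100% called, where 39.6%, 36.5% and 50.8% of all genes tested were called in either direction. FZD6 itself, a receptor linked to planar polarity, passed in KMT2D-KO cells (log2 0.93 ± 0.22, adjusted p = 0.0026) and not in C2 (0.23 ± 0.21) or EED-KO cells (0.03 ± 0.21).

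FZD1 rose in all 3 transitions. It was at 4.88 and 4.65 CPM in C2-Epi and 36.1 and 38.9 CPM in C2-Mes, 20.2 and 23.3 against 48 and 44.7 CPM in EED-KO cells, and 12.2 and 11.2 against 38.6 and 35.5 CPM in KMT2D-KO cells. The changes were 2.98 ± 0.17, 1.09 ± 0.15 and 1.66 ± 0.15 on the log2 scale (adjusted p = 5.1e-09, 6.2e-05 and 1.0e-06). Both edited changes were smaller than that of C2 (adjusted p = 2.7e-05 and 6.5e-04), and the epithelial level was lowest in C2-Epi among these pairs. FZD3 and FZD5 fell in all 3. FZD3 dropped from 18.8 and 24.9 to 1.05 and 0.639 CPM in C2 and from 43.6 and 35.7 to 1.92 and 1.97 CPM in KMT2D-KO cells, but from 34.1 and 18 to 11.2 and 11.4 CPM in EED-KO cells, a smaller fall than in either other line (adjusted p = 3.2e-05 and 7.0e-05).

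FZD8 and FZD7 set the mesenchymal groups apart in different ways. FZD8 was at 57.9 and 62.6 CPM in C2-Mes and 72.9 and 55.4 CPM in C1-sgEED-Mes, but 3.77 and 2.98 CPM in C1-sgKMT2D-Mes. It rose by 2.71 ± 0.18 in C2 and 1.93 ± 0.17 in EED-KO cells and fell by 1.30 ± 0.19 in KMT2D-KO cells on the log2 scale (adjusted p = 6.5e-05 for the fall), and C1-sgEED-Mes was above C1-sgKMT2D-Mes by 4.25 ± 0.20 (adjusted p = 3.4e-09). FZD7, a receptor abundant in basal mammary cells, went from 3.69 and 3.16 to 17.9 and 14.4 CPM in EED-KO cells and from 3.08 and 2.75 to 16.3 and 15.2 CPM in KMT2D-KO cells. In C2 it went from 4.26 and 3.77 to 5.38 and 5.37 CPM, which did not pass (log2 0.42 ± 0.18, adjusted p = 0.083; 0.045 with a GC correction). The edited lines exceeded C2 in this change (adjusted p = 1.4e-04 and 7.1e-05) and did not pass against each other (log2 -0.20 ± 0.25, adjusted p = 0.65). FZD4 fell in KMT2D-KO cells (log2 -1.13 ± 0.31, adjusted p = 0.007; 0.054 without C1-sgKMT2D-Mes replicate 1), and its values in C2 (0.46 ± 0.32) and EED-KO cells (0.15 ± 0.30) did not pass. FZD2 rose there by 1.03 ± 0.30 (adjusted p = 0.011), a call lost without any of 3 libraries (C1-sgKMT2D-Epi replicate 1 or 2, or C1-sgKMT2D-Mes replicate 1; adjusted p = 0.051 to 0.1). In C2-Mes it was at 7.36 and 17.6 CPM, and passed against C2-Epi without replicate 1 (log2 1.19, adjusted p = 7.0e-05).

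**Figure D3:**
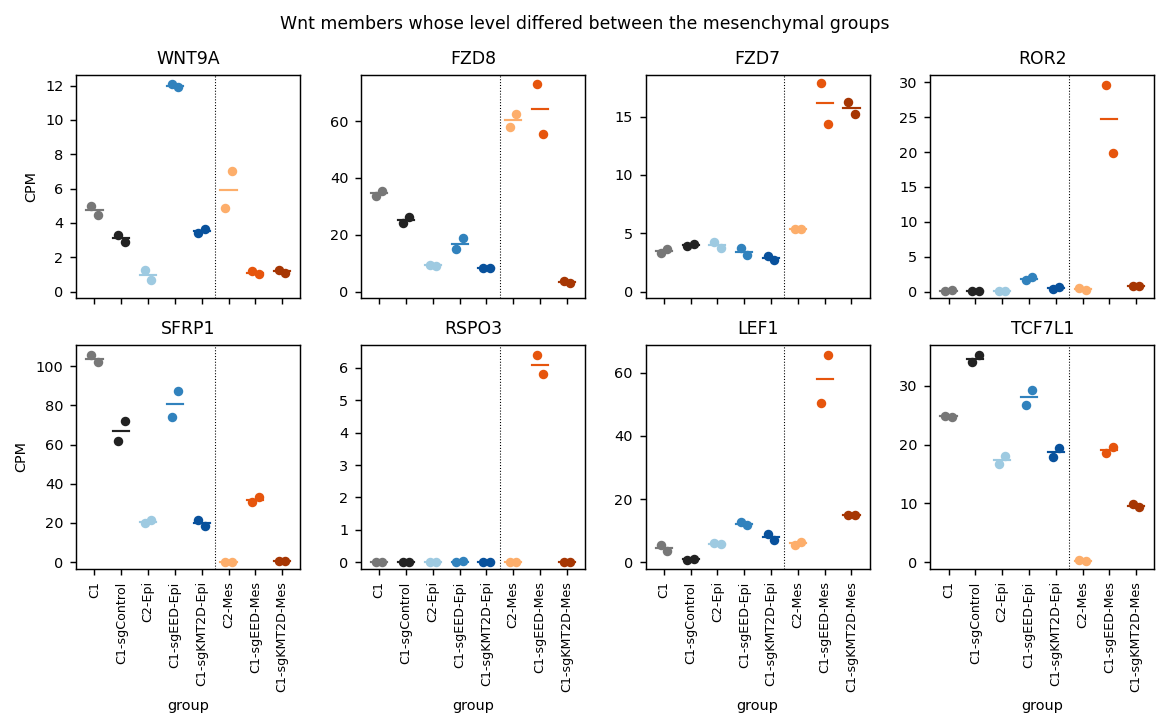
CPM (vertical axes) of 8 members in the 8 groups (horizontal axis), each point 1 library and each bar the mean of 2, with mesenchymal groups right of the dotted line. ROR2, RSPO3 and LEF1 are highest in C1-sgEED-Mes, FZD8 is low in C1-sgKMT2D-Mes, and TCF7L1 is lowest in C2-Mes.

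Of the 5 co-receptors, 2 rose and 1 fell in C2 and in EED-KO cells and 1 rose in KMT2D-KO cells. That is 60%, 60% and 20% called, where 39.6%, 36.5% and 50.8% of all genes tested were. ROR1 rose in all 3. This receptor tyrosine kinase-like protein, on chromosome 1 (GRCh38, 63774022 to 64181498, plus strand), binds WNT5 ligands. It was at 5.42 and 6.46 CPM in C2-Epi and 108 and 91.8 CPM in C2-Mes, 20.2 and 17.4 against 131 and 163 CPM in EED-KO cells, and 14.9 and 12.3 against 203 and 198 CPM in KMT2D-KO cells. Every mesenchymal library lay above every epithelial library, including C1 (8.87 and 10.7 CPM) and C1-sgControl (3.94 in both). The log2 changes were 4.07 ± 0.19 (adjusted p = 9.1e-10), 2.97 ± 0.17 (1.4e-08) and 3.88 ± 0.18 (1.4e-09). By RPKM ROR1 was the highest of the 5 co-receptors in all 3 mesenchymal groups, at 14.8, 21.9 and 29.9 RPKM. In C2-Mes it lay close to RYK at 14.4 RPKM. Their order there depends on the merged exon lengths, 6715 bases for ROR1 and 8047 for RYK.

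ROR2, its paralog, was high in a single group. It was at 29.6 and 19.9 CPM in C1-sgEED-Mes and at most 2.04 CPM in any other library. Its EED-KO rise was 3.72 ± 0.30 on the log2 scale (adjusted p = 3.4e-07), and C1-sgEED-Mes stood 5.0 ± 0.34 above C1-sgKMT2D-Mes (adjusted p = 1.2e-07). In C2 it moved from 0.0722 and 0.0769 to 0.526 and 0.224 CPM, and that call (adjusted p = 0.024) was lost without C2-Mes replicate 1 (adjusted p = 0.16) and without either C2-Epi library (0.11 and 0.091). LRP5 fell from 130 and 119 to 36.3 and 48.4 CPM in C2 (log2 -1.55 ± 0.19, adjusted p = 1.2e-05) and from 45.4 and 52.5 to 34.1 and 24.4 CPM in EED-KO cells (-0.74 ± 0.18, adjusted p = 0.0057; 0.068 without C1-sgEED-Mes replicate 2). LRP6, the other beta-catenin co-receptor, did not pass in any transition, with log2 changes of -0.23 to -0.42 and standard errors of 0.22. With a GC correction it passed in each (log2 -0.35, -0.51 and -0.35, adjusted p = 0.023, 0.0025 and 0.019).

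The secreted antagonists were dominated by DKK1, DKK3 and SFRP1, whose balance differed by state. Of the 7 tested, 71.4% were called in C2, 85.7% in EED-KO and 57.1% in KMT2D-KO cells. Over all genes tested the shares were 39.6%, 36.5% and 50.8%. SFRP2 and WIF1, whose calls are a description as given below, are among the 7. DKK1, an inhibitor of LRP co-receptors that beta-catenin can induce, had the highest mean RPKM of the antagonists in all 5 epithelial groups. In C2-Epi and C1-sgControl its lead over DKK3 (24.5 against 23.9 and 60.6 against 56.5 RPKM) turned over between the libraries. DKK3, a secreted relative with no agreed receptor, was the highest in C2-Mes and C1-sgKMT2D-Mes, at 47.4 and 79.8 RPKM. In C1-sgEED-Mes DKK1 and DKK3 were at 79.2 and 67.7 RPKM, and their order differed by less than the spread of the 2 libraries: DKK1 held 45.5% and 56.6% of the summed antagonist RPKM and DKK3 49.6% and 38.3%.

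DKK1 fell in all 3 transitions, from 51 and 57 to 15 and 13 CPM in C2 (log2 -1.95 ± 0.16, adjusted p = 3.6e-07), from 246 and 275 to 149 and 200 CPM in EED-KO cells (-0.57 ± 0.15, adjusted p = 0.0093) and from 184 and 174 to 97.7 and 87.3 CPM in KMT2D-KO cells (-0.95 ± 0.16, adjusted p = 1.7e-04). The EED-KO call was lost without C1-sgEED-Epi replicate 2 (adjusted p = 0.066) or C1-sgEED-Mes replicate 1 (0.095). The mesenchymal edited libraries thus held several times the DKK1 of C2-Mes. DKK3 rose by 0.99 ± 0.19, 1.50 ± 0.19 and 2.20 ± 0.20 on the log2 scale, with adjusted p = 8.7e-04, 3.0e-05 and 6.7e-07, the first not passing from the C2 libraries alone (adjusted p = 0.075).

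SFRP1, a secreted frizzled-related antagonist of basal and luminal epithelium, showed the largest fold among antagonists with counts in every group. It was at 19.8 and 21.5 CPM in C2-Epi and 0.175 and 0.128 CPM in C2-Mes, a 138-fold fall (log2 -7.10 ± 0.25, adjusted p = 9.4e-11). KMT2D-KO cells went from 21.4 and 18.4 to 0.669 and 0.744 CPM, a 28-fold fall (log2 -4.81 ± 0.20, adjusted p = 4.0e-10). EED-KO cells went from 74 and 87.2 to 30.5 and 33.3 CPM, a 2.53-fold fall (log2 -1.34 ± 0.14, adjusted p = 5.8e-06). The fall in EED-KO cells was smaller than in C2 (difference 5.77 ± 0.31, adjusted p = 2.3e-08) and than in KMT2D-KO cells (3.47 ± 0.25, adjusted p = 6.1e-07).

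Antagonists of low level appeared in particular mesenchymal groups. SFRP2 and WIF1 passed the filter on low counts only through mesenchymal groups where they were high, so their calls below are a description. SFRP2 was at 1.81 and 0.415 CPM in C2-Mes, 0.653 and 0.792 CPM in C1-sgEED-Mes and at 0 in the other 12 libraries. The rise of the group mean was at least 9.96-fold and 6.58-fold. Neither passed with DESeq2 (adjusted p = 0.35 and 0.41). The C2 call was lost from the C2 libraries alone (0.058), and the EED-KO call was also lost without C1-sgEED-Mes replicate 2 (adjusted p = 0.055). FRZB rose in C2 from 0.108 and 0.384 to 3.33 and 1.76 CPM (log2 3.33 ± 0.50, adjusted p = 1.1e-04) and by 1.99 ± 0.65 in EED-KO cells (adjusted p = 0.027, lost without either epithelial library or C1-sgEED-Mes replicate 2 at 0.09 to 0.12). DKK2 rose in KMT2D-KO cells from 0 in both libraries to 1.17 and 1.44 CPM, at least 11.6-fold. WIF1 was seen in EED-KO libraries alone, at 0.152 and 0.211 CPM in C1-sgEED-Epi and 0.834 and 0.924 CPM in C1-sgEED-Mes. Its rise between these (log2 2.24 ± 0.53, adjusted p = 0.013) was lost with DESeq2 (0.47) and without either epithelial library or C1-sgEED-Mes replicate 2 (0.053 to 0.075).

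In the R-spondin axis the receptor LGR6 and the ligase RNF43 fell in all 3 transitions, LGR4 fell in C2 and KMT2D-KO cells, and ZNRF3 fell in C2 and EED-KO cells. RSPO3 and LGR5 rose in EED-KO cells. Of the 6 tested, 66.7% were called in C2, 83.3% in EED-KO and 50% in KMT2D-KO cells. Over all genes tested the shares were 39.6%, 36.5% and 50.8%, so the KMT2D-KO share was near that of all genes. RSPO3, a secreted enhancer of Wnt signals on chromosome 6 (GRCh38, 127118604 to 127197765, plus strand), was at 6.38 and 5.81 CPM in C1-sgEED-Mes. It had 1 count in a C1-sgEED-Epi library (0.0351 CPM) and none in the other 13. The ratio to C1-sgEED-Epi was 335 (59.7 to 13300; adjusted p = 2.6e-05), and the level was at least 47.5-fold that of C1-sgKMT2D-Mes. LGR5, an R-spondin receptor and stem cell marker, was at 1.09 and 1.1 CPM in C1-sgEED-Mes, 0.0381 and 0 CPM in C1-sgEED-Epi and at 0 in the other 12 libraries, a ratio of 59.9 (10.3 to 2410; adjusted p = 0.0012, not passing with DESeq2 at 0.17). The difference of the EED-KO change from the others could not be estimated with edgeR for RSPO3 and LGR5, which were at 0 in both groups of the other pairs. With DESeq2 it passed for RSPO3 (adjusted p = 0.011 against each). RSPO3 and LGR5 passed the filter on low counts only through C1-sgEED-Mes, where they were high, so their calls and p-values are a description.

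RNF43, a ligase that beta-catenin induces and that clears frizzleds from the membrane, fell in all 3. It was at 16.9 and 16.8 CPM in C2-Epi and 0 in both C2-Mes libraries, at least 124-fold lower. In KMT2D-KO cells it went from 4.25 and 4.54 CPM to 0 in both, at least 34.2-fold lower, and in EED-KO cells from 7.5 and 8.98 to 0.98 and 0.528 CPM (log2 -3.42 ± 0.26, adjusted p = 9.5e-07). Its partner ZNRF3 changed less: its log2 changes were -0.43 ± 0.16 (adjusted p = 0.049), -0.77 ± 0.16 (0.0018) and -0.41 ± 0.17 (0.052), the first of which was lost without any of the 4 C2 libraries (0.053 to 0.22). LGR4, the most abundant R-spondin receptor, fell in C2 from 85.9 and 101 to 49.9 and 31.9 CPM (log2 -1.19 ± 0.20, adjusted p = 2.3e-04) and in KMT2D-KO cells from 54.1 and 49 to 16.4 and 18.5 CPM (-1.56 ± 0.20, adjusted p = 2.0e-05). In EED-KO cells it was at 72.2 and 68.7 CPM in the epithelial and 65.5 and 72.4 CPM in the mesenchymal libraries (-0.03 ± 0.19). This change differed from both others (adjusted p = 0.0073 and 0.0015). LGR6 fell in all 3, from 0.478 to 1.05 CPM in the epithelial libraries of these pairs to at most 0.264 CPM.

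The effectors and feedback genes did not move together. Of the 6 tested, 50% were called in C2, 83.3% in EED-KO and 83.3% in KMT2D-KO cells. Over all genes tested the shares were 39.6%, 36.5% and 50.8%. AXIN2 and NKD1 are both reported feedback targets of beta-catenin, and they went opposite ways. AXIN2 was at 0.0722 and 0.0769 CPM in C2-Epi and 0.526 and 1.02 CPM in C2-Mes, 0.571 and 0.912 against 4.06 and 3.43 CPM in EED-KO cells, and 0.213 and 0.199 against 3.05 and 3.06 CPM in KMT2D-KO cells. The rises were 3.36 ± 0.61 (adjusted p = 5.4e-04), 2.32 ± 0.37 (2.0e-04) and 3.86 ± 0.45 (8.4e-06) on the log2 scale. NKD1 fell by a ratio of 19.8 (5.17 to 169) in C2 and 16.2 (4.18 to 139) in KMT2D-KO cells, and by 1.75 ± 0.61 on the log2 scale in EED-KO cells (adjusted p = 0.039, lost without C1-sgEED-Epi replicate 2 at 0.27 or C1-sgEED-Mes replicate 2 at 0.22). Both genes were low in all groups, at most 4.06 CPM for AXIN2 and 1.06 CPM for NKD1.

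The TCF/LEF factors changed their order. TCF7L1, often a repressor, was at 16.7 and 18.1 CPM in C2-Epi and 0.409 and 0.16 CPM in C2-Mes, a 67.6-fold fall (log2 -6.08 ± 0.26, adjusted p = 4.4e-10). In EED-KO cells it went from 26.7 and 29.3 to 18.6 and 19.6 CPM (log2 -0.55 ± 0.16, adjusted p = 0.016), a call lost without C1-sgEED-Epi replicate 2 (0.088) or C1-sgEED-Mes replicate 1 (0.07), with a GC correction (0.078) and from its own libraries alone (0.06). In KMT2D-KO cells it went from 17.9 and 19.4 to 9.83 and 9.41 CPM (-0.96 ± 0.17, adjusted p = 3.2e-04). The C2 fall was larger than both (adjusted p = 4.4e-08 and 1.3e-07). LEF1, an activator, rose in EED-KO cells from 12.8 and 11.7 to 50.6 and 65.5 CPM (log2 2.24 ± 0.22, adjusted p = 2.1e-06) and in KMT2D-KO cells from 8.93 and 7.05 to 15.1 and 14.8 CPM (0.90 ± 0.22, adjusted p = 0.0033). In C2 it was 6 and 5.73 against 5.61 and 6.55 CPM (0.06 ± 0.23). By RPKM LEF1 led the class in C1-sgEED-Mes at 10.8 RPKM, with TCF7L2 second at 5.18 RPKM.

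TCF7 rose in EED-KO cells from 2.29 and 2.21 to 9.4 and 9.64 CPM (log2 2.08 ± 0.19, adjusted p = 1.4e-06) and fell in KMT2D-KO cells from 2.8 and 2.91 to 1.72 and 1.58 CPM (-0.79 ± 0.21, adjusted p = 0.0061), and the changes differed (adjusted p = 1.2e-05). TCF7L2 held between 21.4 and 40.8 CPM in all 16 libraries.

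**Figure D4:**
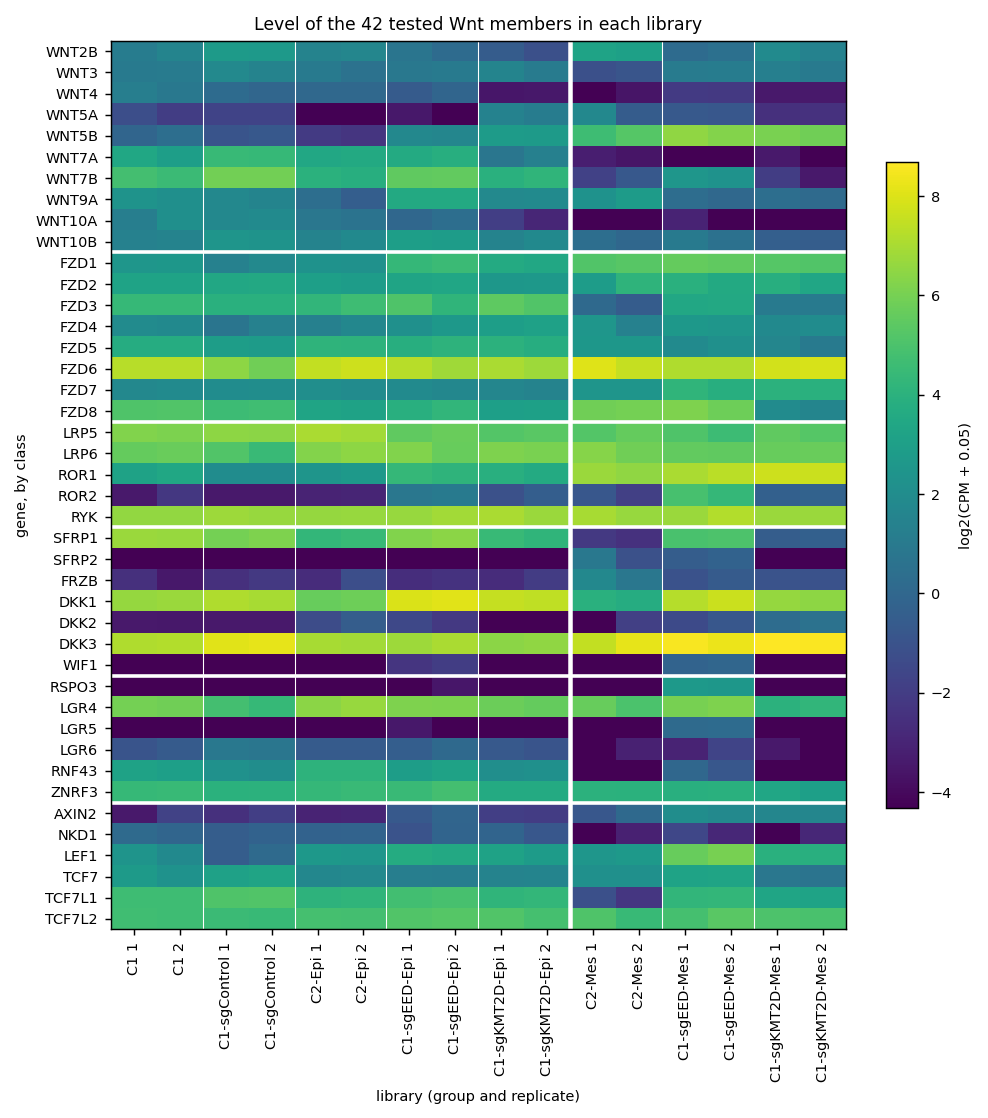
Heat map of log2(CPM + 0.05) (colour) for the 42 tested members (rows, ordered by class) in the 16 libraries (columns), mesenchymal groups right of the thick line. Replicates of a group look alike except at low levels, and WNT7A, WNT7B and RNF43 darken while WNT5B, FZD1 and ROR1 brighten in the mesenchymal columns.

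The edited mesenchymal groups were also compared directly. Of 42 members, 18 were higher and 5 lower in C1-sgEED-Mes than in C1-sgKMT2D-Mes, against 17.7% and 13.4% of all genes. Among the higher were LGR4, RNF43 and ZNRF3 of the R-spondin axis. RSPO3 and LGR5 were called higher too, but they passed the filter on low counts through C1-sgEED-Mes, so their calls are a description. Of the 6 effectors LEF1, TCF7 and TCF7L1 were higher and none lower. The call for ZNRF3 was lost without C1-sgKMT2D-Mes replicate 2 (adjusted p = 0.092). The 5 lower members were WNT2B (log2 -1.39 ± 0.27, adjusted p = 0.0015), FZD6 (-0.73 ± 0.22, adjusted p = 0.019), LRP5, ROR1 and DKK2. The FZD6, LRP5, ROR1 and DKK2 calls each moved with single libraries: without C1-sgKMT2D-Mes replicate 1 the adjusted p was 0.059, 0.29, 0.18 and 0.08, and without replicate 2 it was 0.11, 0.066, 0.14 and 0.15. They were also lost without C1-sgEED-Mes replicate 1 (FZD6 0.077, ROR1 0.25, DKK2 0.18) or replicate 2 (FZD6 0.084, LRP5 0.34, DKK2 0.07). Among the higher members the FZD5 and SFRP2 calls were lost in the same way, FZD5 without replicate 2 of either group (0.19 and 0.3) and SFRP2 without any of the 4 libraries (0.055 to 0.08). Tests of the changes themselves called 17 of 42 members between EED-KO and KMT2D-KO (20.1% of all genes), 19 between EED-KO and C2 (21.1%) and 18 between KMT2D-KO and C2 (24.1%).

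The epithelial groups also differed from each other. The labels give no time course, so rises and falls between states are differences between groups. Against C1, C2-Epi had 5 members higher and 11 lower, where 12.4% and 18.3% of all genes were. SFRP1 was at 105 and 102 CPM in C1 and 19.8 and 21.5 CPM in C2-Epi (log2 -2.33 ± 0.15, adjusted p = 1.5e-07). WNT5B (-2.66 ± 0.40, adjusted p = 2.9e-04), WNT9A (-2.26 ± 0.28, adjusted p = 4.8e-05) and FZD8 (-1.90 ± 0.18, adjusted p = 4.5e-06) were also lower. RNF43 was higher (0.99 ± 0.21, adjusted p = 0.0047), as was LRP5 (0.80 ± 0.18, adjusted p = 0.005), both lost without C1 replicate 2 (0.052 and 0.05). The count dropped to 8 or 9 members when any of the 4 libraries was left out, and 5 of the 16 were called in every alternative.

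The guide control was itself not like C1: 8 members were higher and 11 lower in C1-sgControl, with a background of 13.3% and 13.8%. WNT7B was at 27.5 and 23.5 CPM in C1 and 60 in both C1-sgControl libraries (log2 1.23 ± 0.21, adjusted p = 8.2e-04). LEF1 was at 5.3 and 3.52 CPM in C1 and 0.671 and 1.07 CPM in C1-sgControl (-2.33 ± 0.28, adjusted p = 8.1e-05), and ROR1, FZD1, FZD6, LGR4 and RNF43 were lower too. Ribosomal protein genes took 5.95% and 7.22% of the counts in C1-sgControl and 3.27% to 5% elsewhere. Its part in the differences was not tested.

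Each edited epithelial group was therefore set against both controls. Against C1-sgControl, C1-sgEED-Epi had 18 members higher and 8 lower (background 24.3% and 24.6%), and against C1 it had 11 higher and 6 lower (12.5% and 12.6%). C1-sgKMT2D-Epi had 14 higher and 15 lower against C1-sgControl (25.3% and 30.7%), and 9 higher and 12 lower against C1 (16.4% and 22.4%). Against both controls alike, 9 members were higher and 5 lower in C1-sgEED-Epi, and 9 higher and 11 lower in C1-sgKMT2D-Epi, with no member called in opposite directions. The 9 in C1-sgEED-Epi include WIF1, whose call is a description because of the filter on low counts. The 2 comparisons of a group share its edited libraries, so their directions are not independent, and both edited groups share the controls. How many of all genes were called alike against both controls was not computed, so these shared counts have no background.

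**Figure D5:**
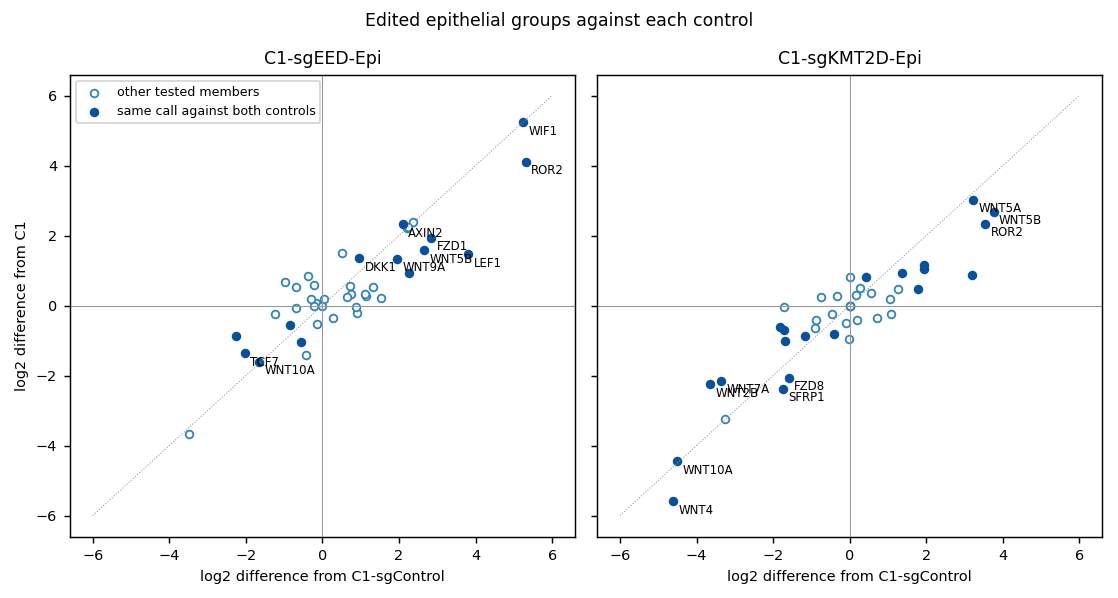
Log2 difference of C1-sgEED-Epi (left) and C1-sgKMT2D-Epi (right) from C1-sgControl (horizontal axis) and from C1 (vertical axis) for the 42 tested members, filled where called the same way against both. Equal differences lie on the dotted line; ROR2 and WNT5B lie at the upper right of both panels, and no filled point lies in the upper left or lower right.

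In C1-sgEED-Epi the members higher than both controls were WNT5B, WNT9A, FZD1, ROR1, ROR2, DKK1, WIF1, AXIN2 and LEF1. WIF1 had no count in either control and few in C1-sgEED-Epi. It passed the filter on low counts only through mesenchymal libraries, so its call is a description. ROR2 was at 1.71 and 2.04 CPM, against 0.0424 and 0.164 in C1 (log2 4.11 ± 0.50, adjusted p = 6.2e-05) and 0.042 and 0.0428 CPM in C1-sgControl, a ratio of 44.4 (12 to 371). WNT5B was 1.58 ± 0.26 above C1 (adjusted p = 6.3e-04) and 2.66 ± 0.29 above C1-sgControl (adjusted p = 8.5e-06). Lower than both were WNT2B, WNT10A, FZD8, LRP5 and TCF7, but with a GC and length correction FZD8 turned to 0.19 against C1-sgControl on the log2 scale. Many of the differences from C1-sgControl changed in size or in call with the control. LEF1, for example, was 3.81 ± 0.27 above C1-sgControl and 1.47 ± 0.23 above C1. FZD6 was 0.89 ± 0.22 above C1-sgControl and -0.20 ± 0.21 from C1, and RNF43 was 0.88 ± 0.22 above C1-sgControl and -0.04 ± 0.21 from C1.

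In C1-sgKMT2D-Epi the 9 higher than both were WNT5A, WNT5B, FZD1, FZD3, FZD4, ROR1, ROR2, DKK1 and LEF1, and the 11 lower were WNT2B, WNT4, WNT7A, WNT7B, WNT10A, FZD8, LRP5, SFRP1, DKK3, ZNRF3 and TCF7. A GC and length correction turned FZD3 to -0.36 and ZNRF3 to 0.05 against C1-sgControl on the log2 scale. The log2 difference from C1 was -2.15 ± 0.25 for WNT7A (adjusted p = 3.5e-05) and -2.38 ± 0.15 for SFRP1 (adjusted p = 1.6e-07). Of the 12 members that fell in all 3 transitions, WNT7A, WNT7B, WNT10A and SFRP1 were lower in this epithelial group than in both controls. FZD3 (before that correction) and DKK1 were higher, and the others were not called against both. Of the 5 that rose in all 3, WNT5B, FZD1 and ROR1 were higher than both controls in both edited epithelial groups, and AXIN2 in C1-sgEED-Epi. DKK3, the fifth, was lower than both controls in C1-sgKMT2D-Epi (log2 -0.71 from C1 and -1.71 from C1-sgControl). The epithelial EED-KO libraries held WNT7A at 12.2 and 14.3 CPM, between C1 (10.6 and 7.73 CPM) and C1-sgControl (21.7 and 20.7 CPM), and its difference was -0.68 from C1-sgControl (adjusted p = 0.022) and 0.54 from C1 (adjusted p = 0.098) on the log2 scale.

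Other genes of the pathway were taken from 7 lists of 90 genes, 81 of them tested: 21 rose and 22 fell in C2, 26 and 26 in EED-KO cells and 23 and 27 in KMT2D-KO cells. That is 53.1%, 64.2% and 61.7% called, where 39.6%, 36.5% and 50.8% of all genes were, and the shares of the single lists are given in the same order. In all 3 transitions 10 rose (CELSR3, DACT3, DVL3, FUZ, GPC6, MMP7, PRICKLE2, SULF1, TBX3, TNFRSF19) and 8 fell (AMER1, CELSR2, CTNNB1, CTNNBIP1, KREMEN2, PORCN, SDC1, VANGL2), names given after their calls were seen. These shared counts have no background over all genes either. The median absolute change over the 81 was 0.62, 0.82 and 0.62 on the log2 scale, against 0.56, 0.51 and 0.75 over all genes and 1.92, 1.97 and 1.55 for the tested members.

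The destruction and transduction list, 16 genes that set beta-catenin levels, had 3 rises and 4 falls in C2, 2 and 5 in EED-KO cells and 1 and 4 in KMT2D-KO cells (43.8%, 43.8% and 31.2% called, near or below all genes). CTNNB1, beta-catenin itself, fell from 632.7 ± 26.79 to 300.1 ± 50.21 CPM in C2 (log2 -1.08, adjusted p = 1.6e-05), by 0.82 in EED-KO cells and by 0.47 in KMT2D-KO cells on the log2 scale. The nuclear cofactors had 3 rises and 3 falls, 3 and 4, and 5 and 3, of 16 (37.5%, 43.8% and 50%, near all genes). CTNNBIP1, which keeps beta-catenin from TCF factors, fell in each (log2 -1.56, -1.71 and -0.96).

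The ligand processing list, 11 genes tested, had 4 rises and 5 falls in C2, 5 and 4 in EED-KO cells and 4 and 4 in KMT2D-KO cells (81.8%, 81.8% and 72.7% called). WLS, the carrier that Wnt ligands need to leave the cell, rose in C2 from 77.6 ± 0.0218 to 671 ± 22.6 CPM (log2 3.11, adjusted p = 1.2e-09). WLS was not among the genes that rose in all 3 transitions. The heparan sulfatase SULF1 rose in all 3. It went from 3.53 ± 0.617 to 57.5 ± 5.96 CPM in EED-KO cells and from 11.1 ± 0.0674 to 70.3 ± 2.23 CPM in KMT2D-KO cells. Its relative SULF2 fell from 284 ± 11.5 to 19.7 ± 1.37 CPM in C2 and from 466.5 ± 11.51 to 118.7 ± 2.375 CPM in KMT2D-KO cells. The glypican GPC6 rose in all 3 (log2 2.08, 5.35 and 1.41).

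Planar polarity genes, 13 tested, had 5 rises and 4 falls in C2 and in EED-KO cells, and 4 and 7 in KMT2D-KO cells (69.2%, 69.2% and 84.6% called). VANGL2, a core polarity membrane protein, fell from 60.9 ± 1.85 to 0.173 ± 0.162 CPM in C2 (log2 -8.19, adjusted p = 1.2e-10) and from 14.5 ± 1.86 to 1.41 ± 0.166 CPM in KMT2D-KO cells. The formin DAAM2 rose in EED-KO cells from 0.486 ± 0.256 to 28.7 ± 3.99 CPM. Other modulators, 8 tested, included CTHRC1, a secreted partner of Wnt and frizzled proteins, which rose from 1.61 ± 0.093 to 48.2 ± 2.1 CPM in EED-KO cells and from 0.186 ± 0.0377 to 52.8 ± 0.0356 CPM in KMT2D-KO cells. This list had 1 rise and 2 falls in C2, 3 and 3 in EED-KO cells and 3 and 2 in KMT2D-KO cells (37.5%, 75% and 62.5% called).

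Reported beta-catenin targets, 16 tested, went both ways: 5 rose and 4 fell in C2, 8 and 5 in EED-KO cells, and 6 and 6 in KMT2D-KO cells (56.2%, 81.2% and 75% called). TNFRSF19 rose in each (log2 5.89, 4.05 and 6.60), and MYC fell in EED-KO (log2 -1.82, adjusted p = 1.3e-06) and KMT2D-KO cells (-2.0, adjusted p = 4.1e-07). Targets are induced by other signals too, and the list was not read as a measure of Wnt activity. Of the 3 ligands outside the member list, 1 was tested, WNT8B, a name given after its call was seen. WNT8B fell in both edited pairs (adjusted p = 0.004 and 0.016) and not in C2 (0.14). It reached at most 0.724 CPM in any library and was at 0 in 6, so these calls rest on few counts.

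The 13 members detected under the filter reached at most 1.05 CPM. RSPO2 had its highest value in C2-Mes, 1.05 and 0.192 CPM. WNT6 was at 0.42 and 0.771 CPM in C1-sgControl, its highest group, and at 0 in 5 libraries. RSPO1 was at 0.363 and 0.528 CPM in C1-sgEED-Mes, the group that also held RSPO3, and at most 0.0702 CPM elsewhere. WNT16 was at 0.292 and 0.192 CPM in C2-Mes and at most 0.0438 CPM elsewhere. For WNT1 and FZD10 a count of 0 allows up to 3 counts, 0.0958 to 0.175 CPM by library. At this depth such levels were not detectable, which is not a statement that the genes were silent.

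Some members lie beside each other or beside other genes. WNT10B and WNT1 are neighbours on chromosome 12 with a gap of 6690 bases, WNT6 and WNT10A on chromosome 2 with 6130 bases, and WNT9A and WNT3A on chromosome 1 with 59153 bases. In each pair 1 gene was tested and the other was at 0 or under the filter in every group. Exons of WNT2B, FZD4, FZD6, DKK1, LEF1, TCF7 and other members overlap those of a gene on the opposite strand in GENCODE (ST7L, PRSS23, BAALC-AS1, PRKG1-AS1, LEF1-AS1 and SKP1 in that order). Whether strand was used in counting is not given in the sources used here, so reads of such pairs may not be told apart.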

How the data were processed

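RNA-seq was measured in 16 HMLER libraries. Per the submitters' processing notes the authors used STAR 2.7.1a, featureCounts and GRCh38; the annotation release, the use of strand and the handling of multimapping reads are not given in the sources used here. The deposited values are raw counts per gene, with no normalization.

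Groups came from the sample titles. Counts of all 16 libraries were fitted in edgeR 4.0.16 (R 4.3.3, limma 3.58.1; filterByExpr, TMM scaling, robust quasi-likelihood test, 8 residual degrees of freedom), and p-values were Benjamini-Hochberg adjusted over 18285 genes within each of 8 pairs and 3 differences of changes, with a threshold of 0.05. Standard errors are the log2 change divided by the square root of F. CPM is TMM-scaled, and RPKM uses the merged GENCODE exon length of each gene. Bounds divide the mean of the higher group by 3 counts per library in the group at 0, and do not cover the spread between replicates. Ratios carry exact Clopper-Pearson intervals at 95%, which cover counting error only. The fit was tested on simulated data.

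Alternatives were RLE scaling, no filter, DESeq2 1.42.0, the compared libraries alone, a replicate block, a GC and length correction, C1 as control and each library left out; a crossed block was added after seeing the data. Members and lists were chosen with earlier results of these data known. All members may be named; of other Wnt lists, up to 4 called genes per list and comparison with at least 5 CPM, by size of change. Sequences are from RefSeq (GRCh38.p14). Figures used matplotlib 3.10.9.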

Additional observations from a re-analysis of the deposited data

Results flagged for a closer look

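These results stand out because the mesenchymal against epithelial change of a gene differed between lines by a test of the difference itself (edgeR, adjusted p under 0.05). They are 46 in number, 17 for EED-KO against C2, 15 for KMT2D-KO against C2 and 14 between the edited lines, and each value is a difference of log2 changes. A further 8 called differences involve a group with 3 counts or fewer and are not listed, a filter chosen after values were seen. No group had 4 or more libraries, so no library was tested as an outlier within its group.

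For EED-KO minus C2, ligands gave WNT2B -1.76, WNT3 2.02, WNT5B -2.80, WNT7B 2.01 and WNT9A -6.03. Receptors gave FZD1 -1.89, FZD3 3.55, FZD7 1.82, FZD8 -0.78, LRP5 0.81 and ROR1 -1.10. The rest were SFRP1 5.77, DKK1 1.38, LGR4 1.16, LEF1 2.19, TCF7 1.61 and TCF7L1 5.53. The FZD8 and LRP5 calls were lost from the compared libraries alone (adjusted p = 0.15 and 0.16).

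For KMT2D-KO minus C2, ligands gave WNT3 1.73, WNT5B -4.34, WNT7B -1.86 and WNT9A -4.19. Receptors gave FZD1 -1.32, FZD4 -1.60, FZD5 -1.0, FZD7 2.01, FZD8 -4.0 and LRP5 1.65. The rest were SFRP1 2.30, DKK1 1.00, DKK3 1.22, TCF7 -1.26 and TCF7L1 5.12. The WNT7B, FZD4 and FZD5 calls were lost from the compared libraries alone (0.11, 0.061 and 0.063).

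For EED-KO minus KMT2D-KO, ligands gave WNT2B -2.76, WNT5B 1.54, WNT7B 3.87 and WNT9A -1.84. Receptors gave FZD3 3.14, FZD4 1.28, FZD8 3.22, LRP5 -0.84, ROR1 -0.92 and ROR2 3.23. The rest were SFRP1 3.47, LGR4 1.53, LEF1 1.34 and TCF7 2.87. The FZD4 call was lost without any of the 8 libraries (0.06 to 0.15).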

How the results depend on the processing

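Of the members called, the number called in every alternative was 24 of 29 in C2, 23 of 32 in EED-KO and 26 of 29 in KMT2D-KO transitions, 5 of 16 for C2-Epi against C1, 9 of 26 and 16 of 29 for the edited epithelial groups against C1-sgControl, 9 of 19 for C1-sgControl against C1, 15 of 23 for the mesenchymal groups, and 15 of 19, 14 of 18 and 14 of 17 for the differences of changes. With the compared libraries alone, the genes called were 3301 in the C2 transition (7246 in the fit of all libraries), 10114 for C2-Epi against C1 (5620) and 2114 for EED-KO minus C2 (3866). With C1 as control, C1-sgEED-Epi had 17 members and 4601 genes called, and the log2 values became 0.54 for WNT7A, -0.20 for FZD6 and -0.04 for RNF43; in C1-sgKMT2D-Epi they became 0.23 for WNT10B, -0.36 for FZD6 and -0.24 for LGR4. The GC and length correction turned FZD3 (-0.46) and FZD8 (0.19) in C1-sgEED-Epi; WNT10B (0.19), FZD2 (0.37), FZD3 (-0.36), FZD6 (-0.30), ZNRF3 (0.05) and TCF7L1 (0.07) in C1-sgKMT2D-Epi; and TCF7L1 (0.00) in C2-Epi against C1. The cause was not tested. Leaving out a library gave 8 to 9 members and 2612 to 3408 genes for C2-Epi against C1, 11 to 14 and 2308 to 3595 for C1-sgControl against C1, 16 to 20 and 3522 to 5242 for the mesenchymal groups, and 2710 to 5566, 3076 to 6759 and 2252 to 3992 genes for EED-KO minus C2, KMT2D-KO minus C2 and EED-KO minus KMT2D-KO; the lone library was assumed to vary like the other groups.

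Replicate numbers were not used to pair the samples in the main fit. Deviations of same-numbered libraries correlated at -0.46 to 0.48 over the 8 pairs, with both signs, and the cause was not tested. A replicate block gave 29, 32 and 29 members in the transitions, 16, 27, 28, 18 and 21 in the other pairs and 19, 18 and 17 in the differences of changes; crossed numbers gave 28 in C2 and 30 in KMT2D-KO cells. Depth limits the members near 0, where 3 counts are 0.0958 to 0.175 CPM.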
